A study of Mus musculus with 10 samples.

Results

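Transcript starts of 9 genes of the mature oligodendrocyte and its myelin sheath were followed in the hippocampus of mice after pilocarpine (PILO)-induced status epilepticus (SE), with and without levetiracetam (LEV), an antiepileptic drug that binds the synaptic vesicle protein SV2A. The genes were *Mbp*, *Mog*, *Mag*, *Mobp*, *Cnp*, *Cldn11*, *Ermn*, *Aspa* and *Ugt8a*, taken by symbol from a table of 15900 genes, and all 9 were listed. Expression was measured by cap analysis of gene expression (CAGE), which sequences the capped ends of RNA, so that tags mark transcription starts and a level in CPM, the tags of a gene scaled to a common library total, does not grow with the length of the transcript. Whole hippocampi of 10 male ICR mice of 9 to 10 weeks were used, and each of the 5 groups had 2 separate animals. The pre-SE group was given no PILO (the labels call it untreated, and the study's methods describe saline for controls). SE 6 h and SE 2 days mice received methyl scopolamine and then PILO by intraperitoneal injection, had their seizures stopped with diazepam and were sampled 6 h or 2 days after SE. SE + LEV 6 h and SE + LEV 2 days mice were treated in the same way and received oral LEV, 1 time before sampling at 6 h and 5 times before sampling at 2 days. The libraries held an estimated 10540698 to 51710968 tags on listed genes, and the lowest level of a member in any library rested on 124 tags or more. Duplicate molecules cannot be recognised in these values.

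Oligodendrocytes wrap axons of the central nervous system in myelin, a compacted stack of membrane that speeds conduction and is rich in lipid and in a small number of abundant proteins. In the hippocampus, bundles of myelinated axons run in the alveus and the fimbria, beside the layers that hold the neuronal cell bodies. *Mbp* (myelin basic protein) and *Mobp* (myelin-associated oligodendrocyte basic protein) encode basic proteins of compact myelin, and *Cnp* encodes an enzyme of the cytoplasmic channels of the sheath. *Mag* and *Mog* encode surface glycoproteins, at the axon-facing and the outermost membrane respectively. *Cldn11* encodes the claudin of myelin tight junctions, and *Ermn* encodes ermin, a cytoskeletal protein of late oligodendrocytes. *Ugt8a* encodes the enzyme that makes galactosylceramide, and *Aspa* encodes aspartoacylase, which splits the neuronal metabolite N-acetylaspartate and so supplies acetate for lipid synthesis.

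On the mm9 assembly, with GENCODE gene models, *Ermn* lay at chr2:57897524-57905275 (minus strand), *Cldn11* at chr3:31048868-31063246 (plus), *Ugt8a* at chr3:125568277-125641468 (minus), *Mag* at chr7:31684202-31699851 (minus) and *Mobp* at chr9:120058860-120090602 (plus). *Aspa* lay at chr11:73118494-73140309 (minus), *Cnp* at chr11:100436218-100453043 (plus) and *Mog* at chr17:37147691-37160343 (minus). A gene on the other strand overlapped 4 of the 9 members, namely *Galnt5* at *Ermn*, *Dnajc7* at *Cnp*, *7SK* at *Mog* and *Rpl21-ps8* at *Mbp*. Whether strand was used when tags were assigned to genes is not given in the sources used here, so the levels of these 4 genes may hold tags of the neighbour.

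Since CAGE counts starts of transcription, the sequence around the start is shown for the 4 members with lower levels in both SE 2 days mice, by a logFC beyond -1, that have a window in the RefSeq promoter table (GRCm38.p6). Each window runs from 250 bases before to 50 bases after the RefSeq start, 5′ to 3′ on the gene's strand, and was placed on mm9 by an exact match found 1 time in the genome. The windows lay at chr11:73138090-73138389 (*Aspa*, minus strand), chr11:100436003-100436302 (*Cnp*, plus), chr9:120058610-120058909 (*Mobp*, plus) and chr17:37160294-37160593 (*Mog*, minus). Capitals mark, on either strand, the TATA box letters TATAAA, the SOX factor letters ACAAAG and their variant ACAATG, the MYRF letters CTGGCAC and their variant CTGGTAC, and the OLIG2 E-box letters CAGCTG and their variant CATCTG.
Aspa: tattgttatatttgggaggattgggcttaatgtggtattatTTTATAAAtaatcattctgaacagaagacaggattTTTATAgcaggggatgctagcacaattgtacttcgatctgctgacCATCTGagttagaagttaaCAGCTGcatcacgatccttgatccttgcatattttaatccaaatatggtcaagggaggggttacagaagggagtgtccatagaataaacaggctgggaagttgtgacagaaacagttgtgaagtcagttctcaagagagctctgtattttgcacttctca
Cnp: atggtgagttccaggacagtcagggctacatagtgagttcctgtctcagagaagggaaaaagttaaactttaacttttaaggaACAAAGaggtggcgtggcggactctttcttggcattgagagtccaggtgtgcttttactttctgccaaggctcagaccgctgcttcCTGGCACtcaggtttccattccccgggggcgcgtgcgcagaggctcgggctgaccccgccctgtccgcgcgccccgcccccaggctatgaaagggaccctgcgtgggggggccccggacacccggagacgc
Mobp: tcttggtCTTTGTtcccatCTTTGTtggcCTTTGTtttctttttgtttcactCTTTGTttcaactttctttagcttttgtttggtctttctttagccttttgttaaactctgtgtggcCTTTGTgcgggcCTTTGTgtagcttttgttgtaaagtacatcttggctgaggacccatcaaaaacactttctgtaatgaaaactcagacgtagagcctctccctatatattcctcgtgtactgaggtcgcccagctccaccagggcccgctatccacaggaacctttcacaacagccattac
Mog: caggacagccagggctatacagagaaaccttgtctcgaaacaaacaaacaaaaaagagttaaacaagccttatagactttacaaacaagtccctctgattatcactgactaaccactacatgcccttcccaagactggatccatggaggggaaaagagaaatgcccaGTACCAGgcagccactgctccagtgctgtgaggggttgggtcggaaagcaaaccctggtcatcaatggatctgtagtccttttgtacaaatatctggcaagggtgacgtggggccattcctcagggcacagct
The SOX letters were found 6 times in the *Mobp* window and 1 time in that of *Cnp*. The MYRF letters were found in the windows of *Cnp* and *Mog*, and the TATA and OLIG2 letters in that of *Aspa*. Among the 8 members with a window, which exclude *Mbp*, 4 held the SOX letters against 28.6% of 32851 mouse windows, 3 held the MYRF letters against 7.1%, 1 held the OLIG2 letters against 30.6% and 1 held the TATA letters against 13.6%. The CCAAT letters stood in 4 members against 37.4% of windows, and the GC box GGGCGG in 3 against 35.7%. A member was counted if any of its windows held the letters, whereas the shares are per window. *Mag*, which had more than 1 window, was among those counted for the SOX, MYRF and CCAAT letters. The *Aspa* window began its transcript 2170 bases inside the GENCODE model, whereas the starts of *Mobp* and *Mog* were the same in both annotations. These matches describe letters only.

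Before SE, the 9 genes spanned a wide range of levels, and no neighbours in their order overlapped. The mean of the pre-SE mice was 2554 ± 345 CPM (SD, n = 2) for *Mbp*, 436 ± 91.8 for *Mobp*, 299 ± 21.2 for *Cnp*, 237 ± 52.7 for *Cldn11* and 142 ± 7.07 for *Mag*. It was 101 ± 5.11 CPM for *Mog*, 75.4 ± 8.20 for *Ermn*, 46.2 ± 18.5 for *Ugt8a* and 25.2 ± 2.11 for *Aspa*. *Mbp* alone made up 53.2% to 70.9% of the tags on the 9 genes in the 10 libraries. The label of these genes as oligodendrocyte genes was checked against Schwann cell markers, of which only *Pmp22*, also found in other cells, was measured, at 6.27 to 20.9 CPM.

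Of the basic proteins of compact myelin, *Mbp* was lowest in both SE 2 days mice, and *Mobp* was lowest in that group only by the mean. *Mbp* stood at 2310 and 2798 CPM in replicates 1 and 2 of pre-SE, 1641 and 3258 in SE 6 h, 2584 and 2155 in SE + LEV 6 h, 898 and 1256 in SE 2 days, and 1517 and 2266 in SE + LEV 2 days. Both SE 2 days mice lay below the other 8 mice, and the SE + LEV 2 days mice lay between them and the pre-SE mice. *Mobp* stood at 501 and 371 CPM in pre-SE, 315 and 444 in SE 6 h, 543 and 218 in SE + LEV 6 h, 138 and 268 in SE 2 days, and 336 and 253 in SE + LEV 2 days. Its SE 2 days mice lay below both pre-SE mice, but their range overlapped those of both LEV groups. *Cnp* stood at 314 and 284 CPM in pre-SE, 207 and 359 in SE 6 h, 344 and 254 in SE + LEV 6 h, 109 and 150 in SE 2 days, and 208 and 338 in SE + LEV 2 days, so that, as for *Mbp*, the SE 2 days mice were the lowest of all 10.

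Of the surface glycoproteins, *Mog* varied with *Mbp* and *Cnp* across the 10 libraries (Pearson's r of 0.90 and 0.95 on log2 levels). *Mag* ordered the mice differently (r of 0.13 and 0.18). *Mog* stood at 105 and 97.3 CPM in pre-SE, 61.0 and 127 in SE 6 h, 112 and 65.9 in SE + LEV 6 h, 34.8 and 64.3 in SE 2 days, and 71.3 and 122 in SE + LEV 2 days. Its lowest mouse was SE 2 days replicate 1, and the other SE 2 days mouse lay above 1 SE 6 h mouse. *Mag* stood at 137 and 147 CPM in pre-SE, 96.4 and 92.8 in SE 6 h, 165 and 90.6 in SE + LEV 6 h, 99.9 and 120 in SE 2 days, and 162 and 104 in SE + LEV 2 days. The mice of each LEV group lay far apart for *Mag*, whereas those of SE 6 h nearly coincided and lay below both pre-SE mice.

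The enzymes of lipid supply, *Aspa* and *Ugt8a*, had the lowest levels of the 9 members in pre-SE mice. *Aspa* stood at 26.7 and 23.7 CPM in pre-SE, 13.8 and 14.0 in SE 6 h, 26.5 and 11.8 in SE + LEV 6 h, 6.61 and 7.69 in SE 2 days, and 9.08 and 15.4 in SE + LEV 2 days. The SE 2 days mice were again the lowest of the 10, and both SE 6 h mice also lay below both pre-SE mice. *Ugt8a* stood at 33.1 and 59.3 CPM in pre-SE, 22.6 and 36.3 in SE 6 h, 28.3 and 27.1 in SE + LEV 6 h, 20.9 and 34.4 in SE 2 days, and 48.9 and 43.7 in SE + LEV 2 days. Its pre-SE mice differed more than the groups did, and their range overlapped that of the SE 2 days mice.

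The levels of the junction and cytoskeleton genes were not lowest in the SE 2 days mice as a group. *Cldn11* stood at 199 and 274 CPM in pre-SE, 155 and 301 in SE 6 h, 245 and 184 in SE + LEV 6 h, 172 and 405 in SE 2 days, and 395 and 312 in SE + LEV 2 days. The highest *Cldn11* level of all belonged to an SE 2 days mouse, while the other mouse of that group was the second lowest of the 10. *Ermn* stood at 69.6 and 81.2 CPM in pre-SE, 78.3 and 43.8 in SE 6 h, 88.8 and 30.6 in SE + LEV 6 h, 66.2 and 55.0 in SE 2 days, and 82.1 and 34.9 in SE + LEV 2 days. For *Ermn* the pairs of mice in SE 6 h and in both LEV groups were far apart, and the SE 2 days mice lay inside their ranges.

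**Figure D1:**
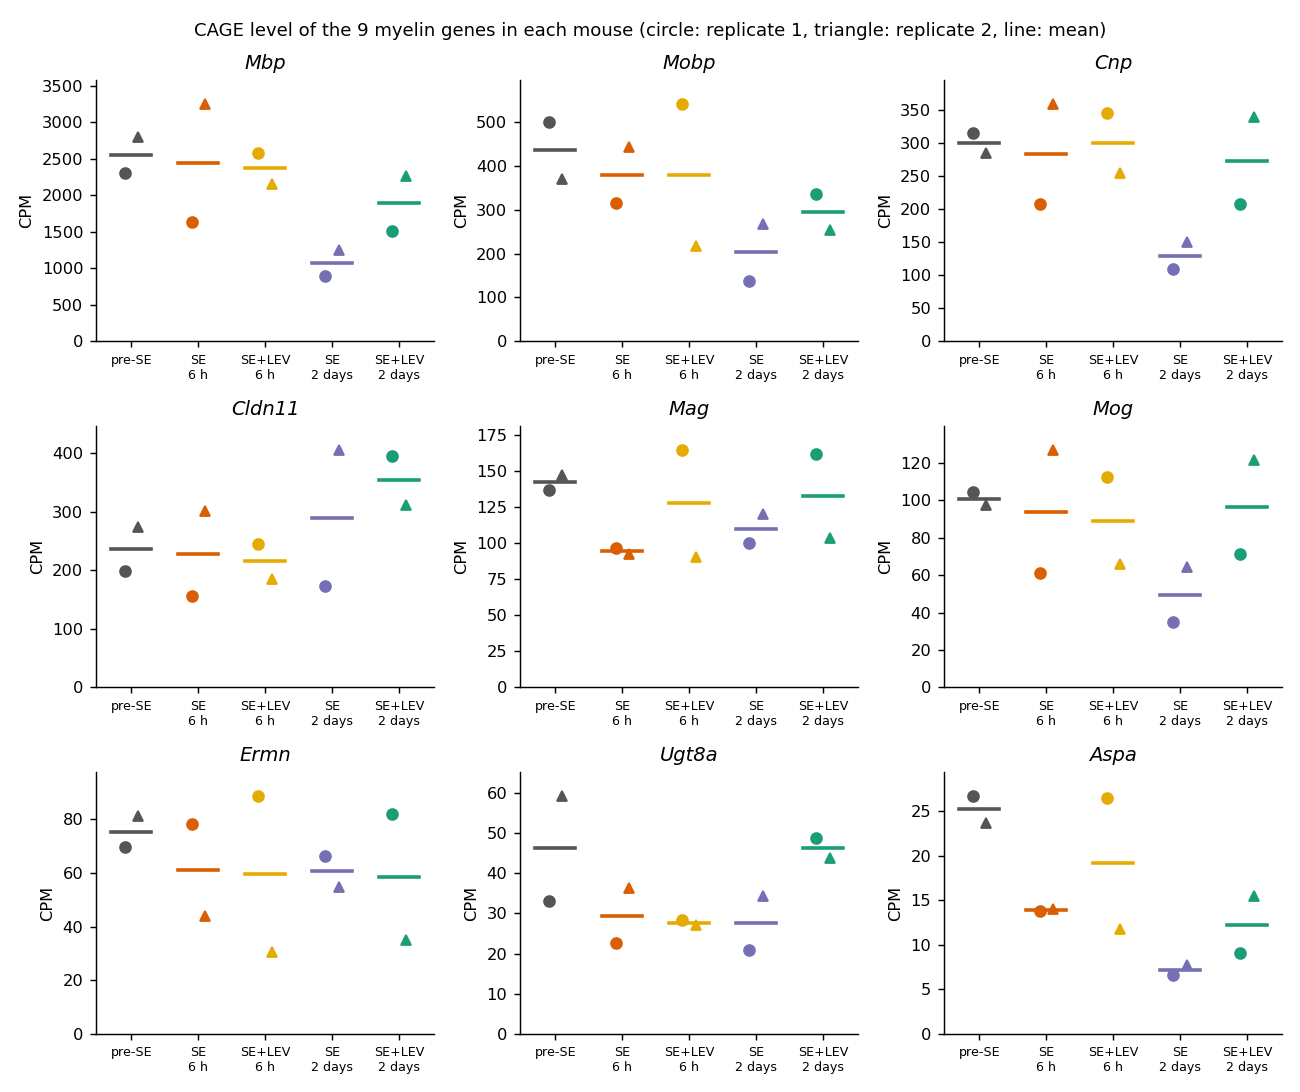
CPM of each of the 9 genes (vertical axes, linear from 0) in each mouse of the 5 groups (horizontal axes). Circles are replicate 1, triangles replicate 2 and lines group means of 2 mice. *Mbp*, *Cnp* and *Aspa* had their lowest values in both SE 2 days mice, whereas *Cldn11* had its highest value, 405 CPM, in 1 of them.

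Summed over the 9 genes, the level was 3696 and 4136 CPM in pre-SE, 2589 and 4676 in SE 6 h, 4138 and 3038 in SE + LEV 6 h, 1546 and 2361 in SE 2 days, and 2829 and 3488 in SE + LEV 2 days. The SE 2 days mice thus gave the lowest sums, 0.155% and 0.236% of all tags, and the highest sum was 0.468%. In whole tissue, fewer oligodendrocytes and less RNA per oligodendrocyte cannot be told apart.

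The levels of the members varied together in a subset. Across the 10 libraries, Pearson's r of log2(CPM + 0.1) was 0.96 between *Mbp* and *Cnp*, 0.95 between *Mog* and *Cnp* and 0.90 between *Mbp* and *Mog*. Against the mean of the other 8 members, r was highest for *Mobp* (0.87) and *Mog* (0.86), and it was 0.79 for *Cnp*, 0.77 for *Mbp* and 0.74 for *Aspa*. It was lower for *Ugt8a* (0.57), *Mag* (0.55), *Cldn11* (0.25) and *Ermn* (0.11). *Mag* and *Ermn* were correlated with each other (r = 0.71), as were *Cldn11* and *Ugt8a* (r = 0.73), while r between *Ermn* and *Cnp* was -0.18. These correlations are descriptions over 10 libraries that share group differences and differ in depth.

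**Figure D2:**
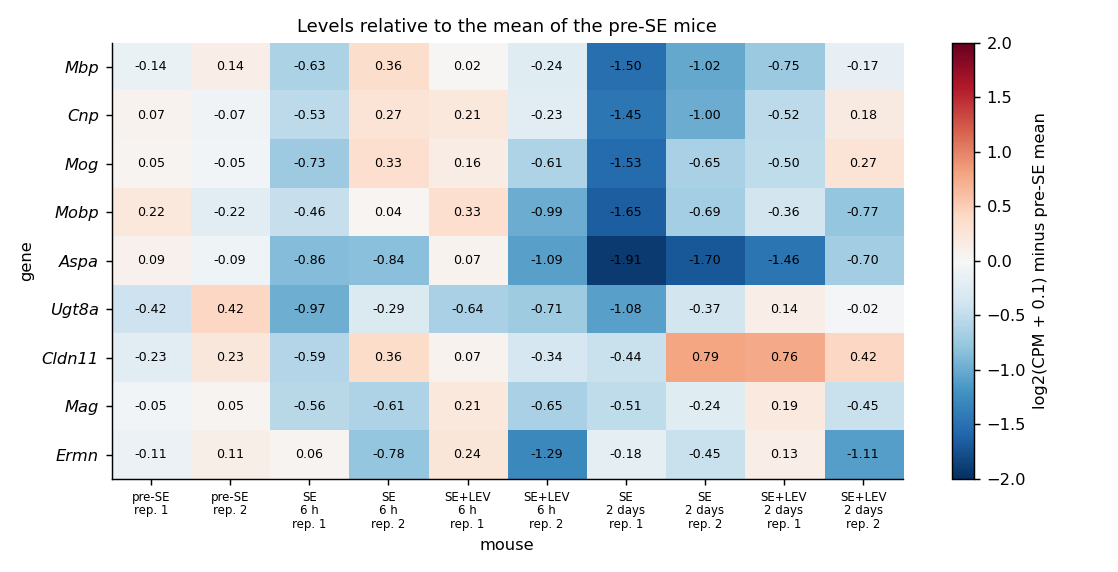
Difference of log2(CPM + 0.1) from the mean of the pre-SE mice, for each gene (rows) and mouse (columns), with the value printed in each cell and coloured from blue (lower) to red (higher). SE 2 days replicate 1 has the lowest value for *Mbp*, *Cnp*, *Mog*, *Mobp*, *Aspa* and *Ugt8a*, and the rows of *Mag* and *Ermn* follow a different order of mice.

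The question of what SE does to these genes was addressed by comparing SE 2 days with pre-SE mice. *Aspa* was lower after SE, by a logFC of -1.80 (standard error 0.40, 95% interval -2.68 to -0.92, adjusted p = 0.026, limma with Benjamini-Hochberg adjustment over 15851 genes), which is 3.49-fold on the log2(CPM + 0.1) scale. It was the only 1 of the 9 members called at an adjusted p of at most 0.05, where 0.593% of all genes tested were called lower and 5.07% higher. The logFC was -1.26 for *Mbp* (interval -2.11 to -0.41, adjusted p = 0.093), -1.22 for *Cnp* (-1.96 to -0.48, adjusted p = 0.062), -1.17 for *Mobp* (-2.15 to -0.18, adjusted p = 0.17) and -1.09 for *Mog* (-2.05 to -0.13, adjusted p = 0.19). None of these 4 passed the adjusted threshold, although their intervals, which are not corrected for the number of genes, lay below 0. The intervals of *Ugt8a* (logFC -0.72, -1.51 to 0.06), *Mag* (-0.38, -1.06 to 0.31), *Ermn* (-0.32, -1.47 to 0.83) and *Cldn11* (0.18, -0.76 to 1.12) included 0. Counted over the members, 8 of 9 estimates were below 0, beside 52.8% of all genes. The median of the members was -1.09, beside -0.03 over all genes tested, and 5 of 9 were lower at an unadjusted p under 0.05 beside 7.29% of all genes. Both SE 2 days mice lay below both pre-SE mice for 7 of 9 members, all but *Cldn11* and *Ugt8a*, beside 25.6% of all genes. The 7 included *Mag* and *Ermn*, whose levels are set against library depth below.

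Since an exact two-sided permutation test of 2 mice against 2 cannot give a p below 0.333, the call of *Aspa* rests on the spread that limma shares across genes and groups. It was lost when pre-SE replicate 1 or 2 or SE 2 days replicate 1 or 2 was left out (adjusted p of 0.094 to 0.16), and the *Cldn11* estimate turned to -0.44 without SE 2 days replicate 2 and to -0.052 without pre-SE replicate 1. The other 8 estimates kept their sign under the alternatives run, but that of *Mobp* ran from -1.65 to -0.69, that of *Mog* from -1.53 to -0.65 and that of *Ugt8a* from -1.14 to -0.30.

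**Figure D3:**
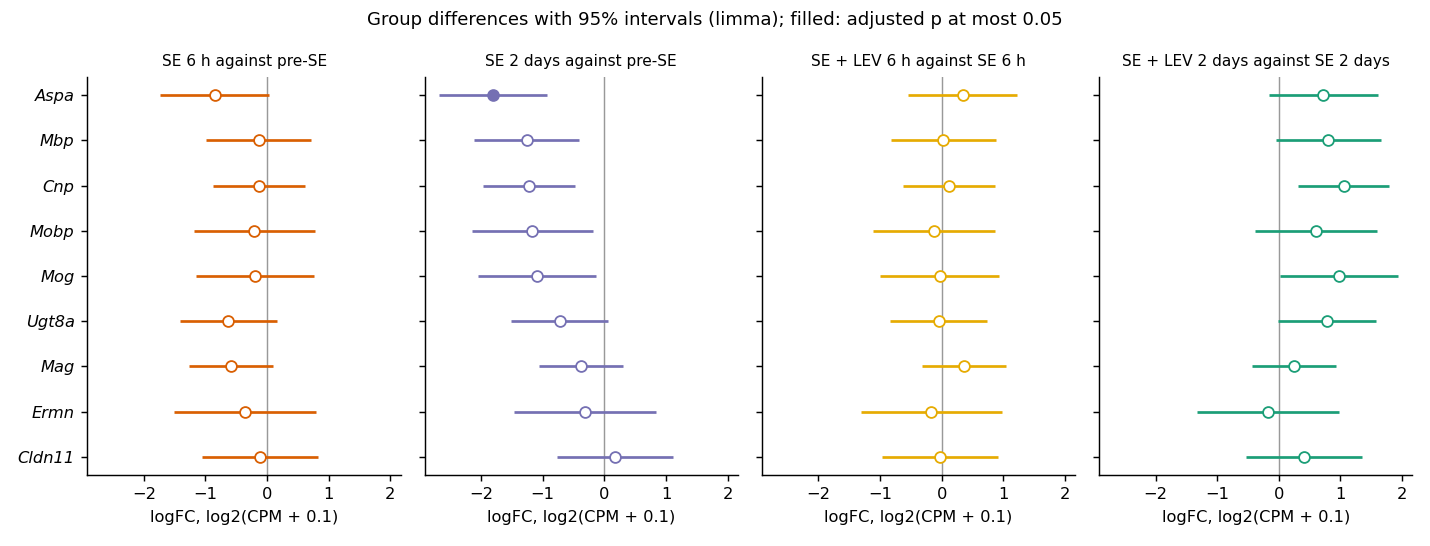
logFC of each gene on the log2(CPM + 0.1) scale (horizontal axes) with its 95% interval, in 4 comparisons of 2 mice against 2, with genes ordered by the SE 2 days difference. The point of *Aspa* in SE 2 days against pre-SE (-1.80) is filled because its adjusted p was at most 0.05, and all other points are open.

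Other genes of the lineage were read from lists. Among 24 further genes of the sheath and of mature oligodendrocytes, 19 had lower estimates in SE 2 days than in pre-SE mice, beside 52.8% of all genes. Their median logFC was -0.55. Of the 24, 4 were called, where 0.593% of all genes were called lower and 5.07% higher. The 3 called higher were *Klk6* (logFC 5.15, standard error 0.74, adjusted p = 0.0035, limma), *Anln* (adjusted p = 0.014) and *Apod* (logFC 2.70, standard error 0.43, adjusted p = 0.0058). *Klk6* encodes a secreted serine protease, *Anln* a scaffold of septins that also acts in cell division, and *Apod* a lipid-binding apolipoprotein that other glia also make, so none of them is a structural protein of compact myelin. *Klk6* stood at 0.41 and 0.58 CPM in pre-SE, 13.0 and 33.5 in SE 2 days, and 49.4 and 9.86 in SE + LEV 2 days. *Anln* stood at 0.10 and 0.37 CPM in pre-SE, the first being near 3 tags, at 2.46 and 6.02 in SE 2 days, and at 6.31 and 1.81 in SE + LEV 2 days. *Apod* stood at 67.0 and 122 CPM in pre-SE, 471 and 731 in SE 2 days, and 376 and 241 in SE + LEV 2 days. Both SE 2 days mice lay far above both pre-SE mice for all 3 genes. The 1 gene called lower was *Gjc3*, a connexin gene, at 37.4 and 30.3 CPM in pre-SE and 7.55 and 12.2 in SE 2 days (logFC -1.80, adjusted p = 0.025, limma). *Gjc3* was named after its values were seen.

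Genes that make myelin lipids (0 of 8), oligodendrocyte transcription factors (0 of 11), precursor and premyelinating genes (0 of 15) and genes of the axonal node and paranode (0 of 9) had no called member in SE 2 days against pre-SE by limma. Over all genes, 0.593% were called lower and 5.07% higher. The median logFC of these lists was -0.09, -0.31, -0.07 and -0.67 respectively. At an unadjusted p under 0.05, 0 of 8, 1 of 11, 4 of 15 and 4 of 9 genes were lower, beside 7.29% of all genes. In the lipid list 2 of 8 were higher at that threshold, for which no share over all genes is given here. Among 10 signals and receptors that act on myelinating cells, *Lif*, a cytokine of the interleukin-6 family that acts on many cell types, was called higher (adjusted p = 0.0013, limma). *Lif* was listed at 0 and 0.06 CPM in pre-SE mice, at most 3 tags each, and at 19.2 and 9.79 CPM in SE 2 days mice. Among markers of other cells in the same comparison, 6 of 6 macrophage activation genes and 2 of 6 astrocyte genes, *Gfap* (logFC 3.60) and *Aqp4* (1.57), were called higher, and 0 of 8 neuronal genes were called, with a median logFC of -0.37. The astrocyte list did not move as a whole. *Slc1a2* fell from 1547 and 1484 CPM in pre-SE to 786 and 809 in SE 2 days. *Slc1a3* (353 and 370.5, then 242 and 198) and *Gja1* (236 and 164, then 86.9 and 115) were also lower in both SE 2 days mice. *Aldh1l1* was higher in both (17.8 and 13.5, then 26.4 and 47.7), and none of these genes was called. Of the other markers, 2 of 6 microglial genes were called higher, 1 of 7 hippocampal neuron genes was called lower, and 0 of 5 endothelial and 0 of 4 thalamic genes were called. Of the microglial genes not called, *P2ry12* was lower in both SE 2 days mice (41.45 and 26.9 CPM in pre-SE, 18.1 and 16.9 in SE 2 days). *Tmem119*, *Cx3cr1* and *Csf1r* were higher in both. The summed level of the macrophage genes ran from 12.4 to 15.5 CPM in pre-SE and from 203 to 250 CPM in SE 2 days mice. The part of these other cells in the lower share of myelin tags was not tested.

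**Figure D4:**
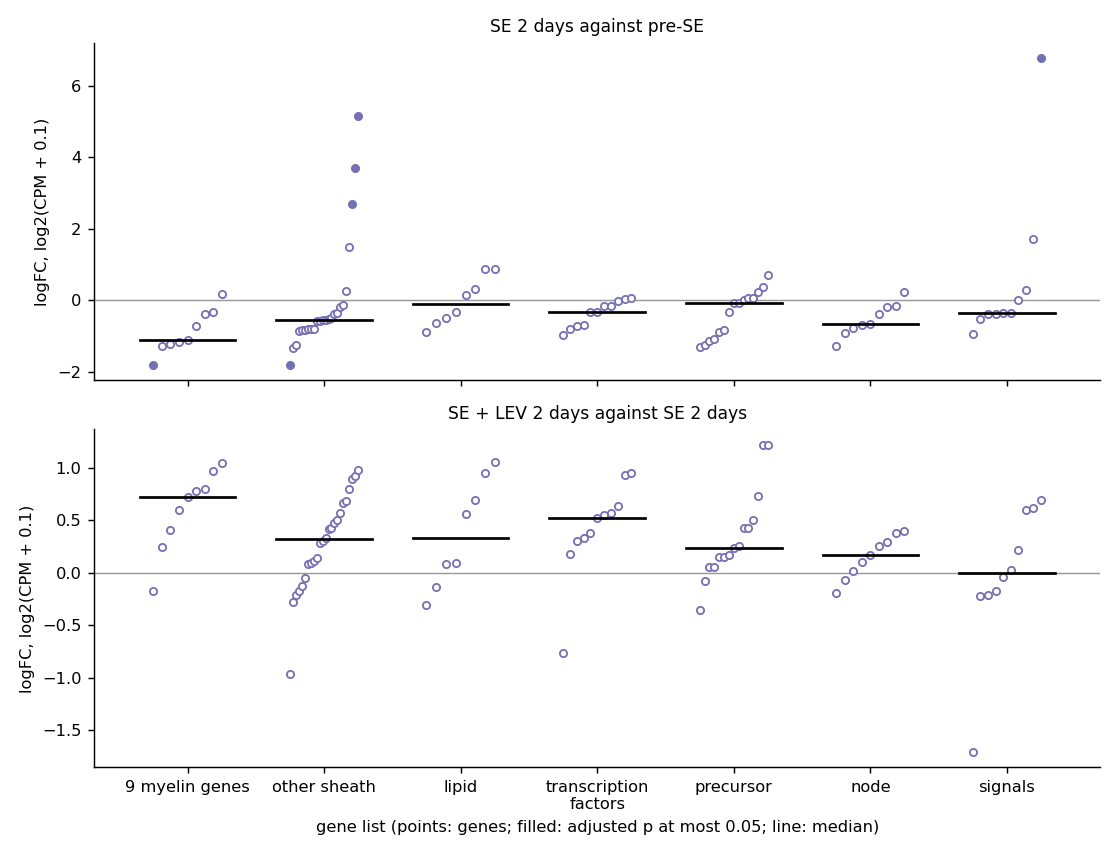
logFC on the log2(CPM + 0.1) scale (vertical axes) of the 9 myelin genes and of 6 other gene lists of the lineage, for SE 2 days against pre-SE (top) and SE + LEV 2 days against SE 2 days (bottom). Points are genes, filled where the adjusted p was at most 0.05, and lines are medians, at -1.09 and 0.72 for the 9 genes.

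Whether LEV treatment altered these levels was addressed by comparing SE + LEV 2 days with SE 2 days mice. None of the 9 members was called by limma, and 0% of all 15851 genes were called in either direction. The largest differences were those of *Cnp*, with a logFC of 1.05 (interval 0.31 to 1.79), *Mog* (0.98, 0.01 to 1.94) and *Mbp* (0.80, -0.05 to 1.65), each with an adjusted p of 1.0. The logFC was 0.78 for *Ugt8a* (interval -0.0050 to 1.57), 0.72 for *Aspa* (-0.16 to 1.60), 0.60 for *Mobp* (-0.39 to 1.59), 0.41 for *Cldn11* (-0.53 to 1.35), 0.24 for *Mag* (-0.44 to 0.93) and -0.17 for *Ermn* (-1.32 to 0.98). Estimates were higher in the LEV group for 8 of 9 members, with a median logFC of 0.72 beside 0.04 over all genes, and 2 of 9 passed an unadjusted p under 0.05 beside 1.31% of all genes. Both SE + LEV 2 days mice lay above both SE 2 days mice for *Aspa*, *Cnp*, *Mbp*, *Mog* and *Ugt8a*, 5 of 9 members, beside 15.2% of all genes. In the other lists of the lineage, 18 of 24 sheath genes, 6 of 8 lipid genes, 10 of 11 transcription factors and 13 of 15 precursor genes had higher estimates, with medians of 0.32, 0.33, 0.52 and 0.24. So did 7 of 9 node genes (median 0.17) and 5 of 10 signals (median -0.0050), while 44.6% of all genes had lower estimates, and no gene of these lists was called. The SE 2 days mice enter this comparison and the one with pre-SE, so that low values in these mice push the estimates of both in opposite directions. The estimates of *Mag*, *Cldn11* and *Ermn* changed sign when 1 mouse was left out, to -0.077 (*Mag*, without SE + LEV 2 days replicate 1), -0.21 (*Cldn11*, without SE 2 days replicate 1) and 0.44 (*Ermn*, without SE + LEV 2 days replicate 2). The other 6 stayed above 0 under the alternatives run, with ranges of 0.12 to 1.08 for *Mobp*, 0.34 to 1.10 for *Aspa*, 0.43 to 1.14 for *Ugt8a*, 0.51 to 1.09 for *Mbp*, 0.53 to 1.42 for *Mog* and 0.70 to 1.40 for *Cnp*.

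Set against pre-SE, no member was called in SE + LEV 2 days mice, where 0.0189% of all genes were called lower and 2.83% higher. *Aspa* (logFC -1.08, interval -1.96 to -0.20, adjusted p = 0.29, limma), *Mobp* (-0.57) and *Mbp* (-0.46) lay below both pre-SE mice in both treated mice, 3 of 9 beside 17.5% of all genes, and *Cldn11* lay above them (0.59), 1 of 9 beside 22.6%. The median logFC of the members was -0.17, and 1 of 9 (*Aspa*) was lower at an unadjusted p under 0.05 beside 1.91% of all genes.

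The groups sampled early after SE were compared in the same way. In SE 6 h none was called, where 0.202% of all genes were called lower and 2.76% higher, and 0 of 9 passed an unadjusted p under 0.05. The estimates of all 9 were lower (logFC -0.85 to -0.11, median -0.21), beside 60.0% of all genes, whose median was -0.13. Those of 6 (*Mbp*, *Mog*, *Mobp*, *Cnp*, *Cldn11* and *Ermn*) were, however, above 0 under at least 1 alternative, up to 0.36 for *Mbp* and *Cldn11*. That of *Cldn11* was above 0 also under median-of-ratios rescaling, which moved the median of all genes from -0.13 to -0.0045. The estimates of *Mag*, *Aspa* and *Ugt8a* stayed below 0 under the alternatives run. *Aspa* (logFC -0.85, interval -1.73 to 0.03, adjusted p = 0.30, limma) and *Mag* (-0.59, -1.27 to 0.10, adjusted p = 0.35) were lower in both SE 6 h mice than in both pre-SE mice, 2 of 9 beside 31.3% of all genes. With LEV at 6 h, no member was called against SE 6 h, where 0.0126% of all genes were called lower and 0% higher. At an unadjusted p under 0.05 the count of members was also 0. The estimates ran from -0.17 to 0.37 with a median of -0.02, all 9 changed sign under at least 1 alternative, and the groups overlapped for all 9 members. Against pre-SE, no member was called in SE + LEV 6 h mice either, where 0.00631% of all genes were called lower and 0.315% higher, and none passed an unadjusted p under 0.05. Only *Ugt8a* was lower in both treated mice (logFC -0.68, adjusted p = 0.58, limma), 1 of 9 beside 25.5% of all genes.

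Between the times, no member was called in SE 2 days against SE 6 h mice, where 1.11% of all genes were called lower and 3.14% higher, and 3 of 9 were lower at an unadjusted p under 0.05 beside 7.29% of all genes. The logFC was -1.12 for *Mbp* (interval -1.97 to -0.27, adjusted p = 0.14, limma), -1.09 for *Cnp* (-1.83 to -0.35, adjusted p = 0.10), -0.96 for *Mobp* (-1.95 to 0.03) and -0.95 for *Aspa* (-1.83 to -0.07). For these 4 of 9 members both SE 2 days mice lay below both SE 6 h mice, beside 20.1% of all genes, whereas *Mag* lay above them (logFC 0.21), 1 of 9 beside 31% of all genes. Between SE + LEV 2 days and SE + LEV 6 h mice no member was called, where 2.06% of all genes were called higher and 0.0757% lower, and 0 of 9 passed an unadjusted p under 0.05. *Cldn11* (logFC 0.72) and *Ugt8a* (0.74) were higher in both mice at 2 days, 2 of 9 beside 26.6%. The difference between the LEV effects at 2 days and at 6 h was called for 0 of 9 members and for 0% of all genes. It ran from -0.13 to 1.01 with a median of 0.72, and 0 of 9 members passed an unadjusted p under 0.05.

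Library depth moved with 1 member. *Ermn* was higher in the deeper of the 2 mice in 5 of 5 groups, and across the 10 libraries its log2 level was correlated with the log2 of the estimated number of tags (Pearson's r = 0.82, permutation p = 0.0032, adjusted p = 0.029 over 9 members; Spearman's rho = 0.84, permutation p = 0.0039, adjusted p = 0.035). Without the 2 libraries farthest from the median depth r was 0.69, and 0.29% of all genes tested had an r as high. For *Mag* r was 0.74 (permutation p = 0.012, adjusted p = 0.054) and rho 0.71 (permutation p = 0.027, adjusted p = 0.12), with the deeper mouse higher in 4 of 5 groups. For the other 7 members r ran from -0.05 to 0.47. Both SE 2 days libraries (23585359 and 20937023 tags) were shallower than both pre-SE libraries (28995961 and 51710968). They were also shallower than both SE + LEV 2 days libraries (43743195 and 24346865), so that depth separated these groups. The part of depth in the differences of *Ermn* and *Mag* between groups was not tested.

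**Figure D5:**
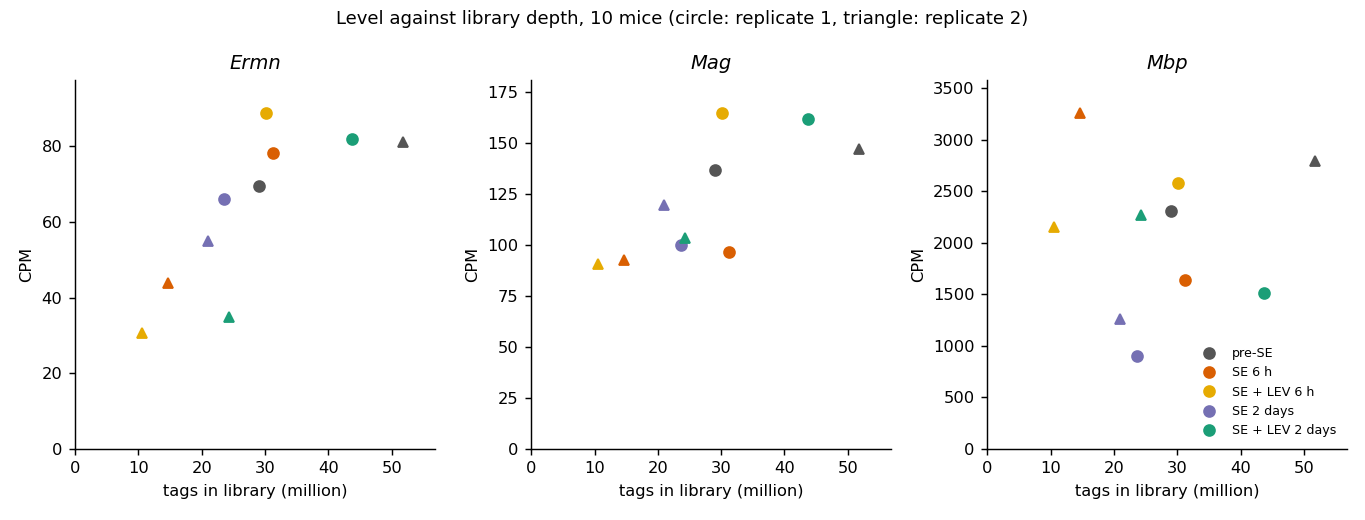
CPM of *Ermn*, *Mag* and *Mbp* (vertical axes, linear from 0) against the estimated number of tags in the library (horizontal axes, linear from 0), for 10 mice coloured by group, with circles for replicate 1 and triangles for replicate 2. On log2 scales r with depth is 0.82 for *Ermn* and -0.05 for *Mbp*.

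Markers of the choroid plexus, the secretory tissue of the ventricles that lies against the hippocampus, were uneven between mice. Its transcript *Ttr* stood at 5.83 and 1668 CPM in pre-SE, 4.33 and 3936 in SE 6 h, 843 and 30.0 in SE + LEV 6 h, 55.6 and 13.5 in SE 2 days, and 1475 and 18.9 in SE + LEV 2 days, and the summed level of 4 choroid plexus markers showed the same mice as high. None of the 4 was called in SE 2 days against pre-SE or in SE + LEV 2 days against SE 2 days. Each group but SE 2 days thus held 1 mouse with over 800 CPM. Among mice with little *Ttr*, *Mbp* was 2310 CPM in pre-SE, 1641 in SE 6 h and 2155 in SE + LEV 6 h. It was 898 and 1256 CPM in SE 2 days and 2266 in SE + LEV 2 days. In the mice with over 800 CPM of *Ttr*, *Mbp* was 2798 CPM in pre-SE, 3258 in SE 6 h, 2584 in SE + LEV 6 h and 1517 in SE + LEV 2 days. The part of uneven dissection in these levels was not tested. Without the 4 libraries over 800 CPM, which leaves 1 pre-SE mouse whose spread is taken from the SE 2 days pair, the logFC in SE 2 days against pre-SE was -1.89 for *Aspa* (adjusted p = 0.051, limma), -1.30 for *Cnp*, -1.12 for *Mbp*, -1.38 for *Mobp* and -1.14 for *Mog*. In SE + LEV 2 days against SE 2 days it was then 1.40 for *Cnp*, 1.36 for *Mog* and 1.09 for *Mbp*, and 0 members were called in either comparison.

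The genes whose levels followed the mean of the 9 members most closely over the 10 libraries, among those with a mean of at least 1 CPM, were *1190005I06Rik* (r = 0.94), *Efhd1* (0.92), *Sept4* (0.90), *Scd2* (0.89), *Prkcq* (0.89), *Gm17241* (0.88), *Bcas1* (0.87) and *Aass* (0.87). *Bcas1* is also in the list of precursor and premyelinating genes. The level of *1190005I06Rik* was 11.6 CPM in each pre-SE mouse, 3.99 and 7.79 CPM in SE 2 days mice and 10.4 and 12.2 CPM in SE + LEV 2 days mice.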

How the data were processed

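CAGE libraries of whole hippocampi from 10 mice, 2 in each of 5 groups, were grouped by the labels. Tags were mapped to mm9, and the submitters' processing notes name BWA 0.7.17, HISAT2 2.0.5, bedtools 2.12.0 and edgeR 3.22.5. Clusters were made with RECLU, and clusters under 0.1 CPM were discarded. The authors deposited CPM values per gene and mouse, rounded to 2 decimals. The step from clusters to gene values is not given in the sources used here. The number of per-mouse columns left out was 0, and 15900 of 15900 identifiers matched the mm9 annotation. Library totals were estimated from the step between low CPM values, since 100% of values were whole multiples of 1 tag within a rounding tolerance of 0.0051 CPM. These totals describe depth only.

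Group differences were tested by limma 3.58.1 (R 4.3.3) on log2(CPM + 0.1), which understates the changes of low genes. All 10 libraries entered 1 fit of 5 group means with a trend of variance on mean level. The tests were two-sided, and p-values were adjusted after Benjamini and Hochberg over 15851 genes, those reaching 0.1 CPM in 2 or more libraries. A gene was called if its adjusted p did not exceed 0.05. The fit was tried on simulated counts drawn with the same spread for all genes. Real genes differ in spread, and the mice differed in *Ttr*, so that the simulation gives no error rate for these data. In the 9 comparisons, some groups of mice enter more than 1. The 9 members and all gene lists were chosen with earlier results of these data known, and lists are described by counts and medians without a test. All members were named, and from other lists up to 3 called genes per comparison, the largest first. Genes most like the members were the 8 with the highest Pearson's r to their mean profile. Where a symbol had 2 rows (*Trf*, *Zbtb20*), the row with the higher mean was used. Correlations with depth were tested with 100000 permutations. Python 3.11.15 with pandas 2.3.3, numpy 2.4.6 and matplotlib 3.10.9 served for tables and plots. Alternatives were other pseudocounts, filters and scaling, a replicate block, fits of only the groups compared, and leaving out each mouse.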

Additional observations from a re-analysis of the deposited data

How the results depend on the processing

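The count of members called in SE 2 days against pre-SE was 1 (*Aspa*) and became 2 (*Aspa* and *Cnp*) in a fit of only the groups compared. With each mouse left out in turn it ran from 0 to 2. It was 0 without either pre-SE or either SE 2 days mouse, which leaves 1 mouse in a group whose spread is taken from the others, and 2, with *Cnp*, without either SE 6 h or either SE + LEV 2 days mouse. It was also 0 without the 4 libraries with over 800 CPM of *Ttr*, a choice made after seeing the data. Over all alternatives the adjusted p of *Aspa* ran from 0.0088 to 0.16. In the other 8 comparisons 0 members were called under every alternative run, which were pseudocounts of 0.01 and 1, no filter, a higher filter (1 CPM reached in 2 libraries), rescaling by median of ratios, the replicate block and the omissions above. The sign of *Cldn11* in SE 2 days against pre-SE turned to -0.052 without pre-SE replicate 1 and -0.44 without SE 2 days replicate 2, and its highest value with 1 mouse left out was 0.79. In SE + LEV 2 days against SE 2 days, *Mag* turned to -0.077 without SE + LEV 2 days replicate 1 and also without the 4 libraries with high *Ttr*, *Cldn11* to -0.21 without SE 2 days replicate 1, and *Ermn* to 0.44 without SE + LEV 2 days replicate 2, and at the other end of their ranges stood 0.56, 1.03 and -0.79. In the other comparisons estimates also changed sign under at least 1 alternative, namely 9 of 9 in SE + LEV 6 h against SE 6 h, 8 in SE + LEV 6 h against pre-SE, 7 in SE + LEV 2 days against SE + LEV 6 h, 6 in SE 6 h against pre-SE, 5 in SE + LEV 2 days against pre-SE, 4 in the difference of the LEV effects and 3 in SE 2 days against SE 6 h. The cause was not tested.

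The same replicate number marks different mice. The deviations of mice with the same number had a correlation over genes that ran from -0.44 to 0.34 between groups. Whether such mice shared handling or dissection cannot be read from these values and was not tested. With the replicate number as a block, 1 member was called in SE 2 days against pre-SE (*Aspa*, adjusted p = 0.043, limma) and 0 in the other comparisons. With the block crossed in SE + LEV 2 days, added after seeing the data, 0 members were called in the comparisons with SE 2 days and with pre-SE. Both planned tests on tag counts were not run. The rounding to 2 decimals was coarse beside the step of 1 tag in most libraries, so the recovered tags were not accepted as counts for a test. With 2 mice a group, differences smaller than the spread between mice were not detectable, for abundant genes as for low ones. A larger difference could also miss the adjusted threshold. *Mbp*, the most abundant member, was not called in SE 2 days against pre-SE at a logFC of -1.26 (adjusted p = 0.093, limma), although the groups did not overlap.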
